A study of Mus musculus with 11 samples.

Results

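The genes described here carry out and sense bile acid transport in the terminal ileum: Nr1h4, Nr1i2, Slc10a2, Fabp6, Slc51a, Slc51b, Fgf15, Abcc2, Abcc3 and Cyp27a1. All probes whose deposited name was 1 of these symbols were taken, with Slc51a and Slc51b under their older names. The files write the symbols in capitals (NR1H4, NR1I2, SLC10A2, FABP6, FGF15, ABCC2, ABCC3, CYP27A1). This gave 13 probes for 10 genes, out of 25697 probes on the array. Total RNA of terminal ileum was hybridised to Illumina MouseRef-8 bead arrays, 1 array per mouse, and 8 of the 11 deposited arrays were used. The SKG group was 5 naive SKG mice (replicates 4 to 8, all in batch 3). SKG is a strain on the BALB/c background with a point mutation of Zap70, the kinase that relays T cell receptor signals. The control group was 3 naive BALBc mice, replicates 1 and 2 in batch 2 and replicate 3 in batch 3, and all mice were 8 to 12 weeks old. The mutation is carried in every cell, and the measured tissue is whole ileum with its epithelium, leukocytes and muscle. The other 3 SKG arrays (batch 1) were left out because their rows are out of step with the probe names. Batch 3 is therefore the only batch with both strains, and it holds 1 BALBc mouse.

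Bile acids are made from cholesterol in the liver, secreted into the gut to dissolve fat, and recovered in the terminal ileum. There the apical transporter Slc10a2 takes them into the enterocyte, Fabp6 binds them in the cytosol, and the heteromer of Slc51a and Slc51b lets them out towards the portal blood. Inside the cell they activate the nuclear receptor FXR, encoded by Nr1h4, which induces Fabp6, Slc51a, Slc51b and the hormone gene Fgf15, whose product lowers bile acid synthesis in the liver. Nr1i2 encodes PXR, a receptor for xenobiotics and secondary bile acids. Abcc2 and Abcc3 are export pumps of the apical and the basolateral membrane, and Cyp27a1 is the mitochondrial sterol 27-hydroxylase of the alternative bile acid pathway.

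FXR binds, with its partner RXR, to an inverted repeat of AGGTCA half-sites spaced by 1 base, the element called IR-1. The promoters of 8 of the 10 genes, all but Fgf15 and Abcc3, which had no entry, were matched by symbol in RefSeq, build GRCm38.p6. The promoters each covered 250 bases before to 50 bases after the start site. They were searched for AGGTCANTGACCT, which reads the same on both strands, with at most 2 mismatches in its 12 fixed letters. Fabp6 alone among these 8 held such a match, with 2 of them, against 1.14% of all 32851 promoters of the same length. Slc51a and Slc51b came closest after it, with 3 mismatches each, and the remaining 5 had 4. A match with at most 3 mismatches was found in 11.4% of all promoters. The 3 promoters with the fewest mismatches are shown 5′ to 3′, with the letters closest to the element in capitals. They lie on the minus strand at chr11:43601513-43601812 (Fabp6), chr16:32487830-32488129 (Slc51a) and chr9:65422724-65423023 (Slc51b). The matches of Fabp6 begin 222 and 142 bases before the start site, that of Slc51a 79 and that of Slc51b 187 bases before it. A match describes letters and does not show binding.
Fabp6: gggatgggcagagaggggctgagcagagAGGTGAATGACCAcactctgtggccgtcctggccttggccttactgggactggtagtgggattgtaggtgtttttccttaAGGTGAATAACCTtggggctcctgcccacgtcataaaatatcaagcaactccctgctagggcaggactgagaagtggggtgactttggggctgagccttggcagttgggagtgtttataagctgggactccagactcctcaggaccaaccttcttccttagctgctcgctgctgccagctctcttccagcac
Slc51a: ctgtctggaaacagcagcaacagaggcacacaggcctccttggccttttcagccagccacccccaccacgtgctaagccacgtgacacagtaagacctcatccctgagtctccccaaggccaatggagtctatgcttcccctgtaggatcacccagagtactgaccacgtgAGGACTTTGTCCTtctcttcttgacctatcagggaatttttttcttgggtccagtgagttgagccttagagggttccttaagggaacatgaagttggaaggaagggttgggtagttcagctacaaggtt
Slc51b: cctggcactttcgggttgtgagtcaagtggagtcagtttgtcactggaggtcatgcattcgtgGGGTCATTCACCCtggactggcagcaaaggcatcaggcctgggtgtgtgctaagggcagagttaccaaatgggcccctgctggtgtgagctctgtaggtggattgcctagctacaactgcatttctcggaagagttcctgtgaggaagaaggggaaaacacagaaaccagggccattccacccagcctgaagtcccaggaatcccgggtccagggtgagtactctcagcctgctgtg

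Each array gave 12445 to 14076 probes above background at a detection p under 0.05. Correlations between arrays over the 13775 probes kept were 0.98 to 0.99 among SKG replicates 4, 5, 7 and 8, and 0.94 to 0.95 between SKG replicate 6 and those. They were 0.95 to 0.96 between SKG and the BALBc mouse of batch 3, and 0.87 to 0.90 between batches. SKG replicate 6 and batch 2 thus stood apart from the rest. A value is given below as the normalised log2 signal of 1 probe, and levels of different probes are not compared. Vil1, Krt20 and Cdx2, markers of intestinal epithelium, were above background on all 8 arrays. The probes of Fabp1 and Fabp2, fatty acid binding proteins abundant in small intestinal enterocytes, were not above background on any array.

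No member differed between SKG and BALBc at a limma adjusted p under 0.05. Over all 13775 probes tested 0.319% passed as higher in SKG (44 probes) and 0.254% as lower (35 probes). With 75th percentile scaling these counts were 102 and 45, and with cyclic loess 26 and 42. Of the 13 member probes, 12 were above background on at least 3 arrays and entered the test, for 9 genes. Fitted differences were positive for 10 of the 12, against 51.0% of all probes. Their median was 0.41 on the log2 scale, against 0.01 over all probes, and 0.50 against 0.02 within batch 3. With 75th percentile scaling the medians were 0.74 for the members and 0.17 for all probes. At an unadjusted p under 0.05, 5 of the 12 were higher and 0 lower, against 7.42% and 5.92% of all probes. In 6 of the 12 every SKG value lay above every BALBc value, which held for 10.0% of all probes, and in 0 every SKG value lay below, against 5.25%. With batch as a fixed block 1 of the 12 was called higher (Nr1i2), against 0.211% of all probes, and 0 lower, against 0.312%. With no batch term 3 were called higher, against 3.11% of all probes, and 0 lower, against 1.98%. The 6 without overlap were the probes of Nr1h4, Slc51a, Abcc2 (the brighter) and Cyp27a1 (all 3). The 3 Cyp27a1 probes measure 1 gene and are not independent of each other. The plot of values by array shows these 6 beside the 7 others.

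**Figure D1:**
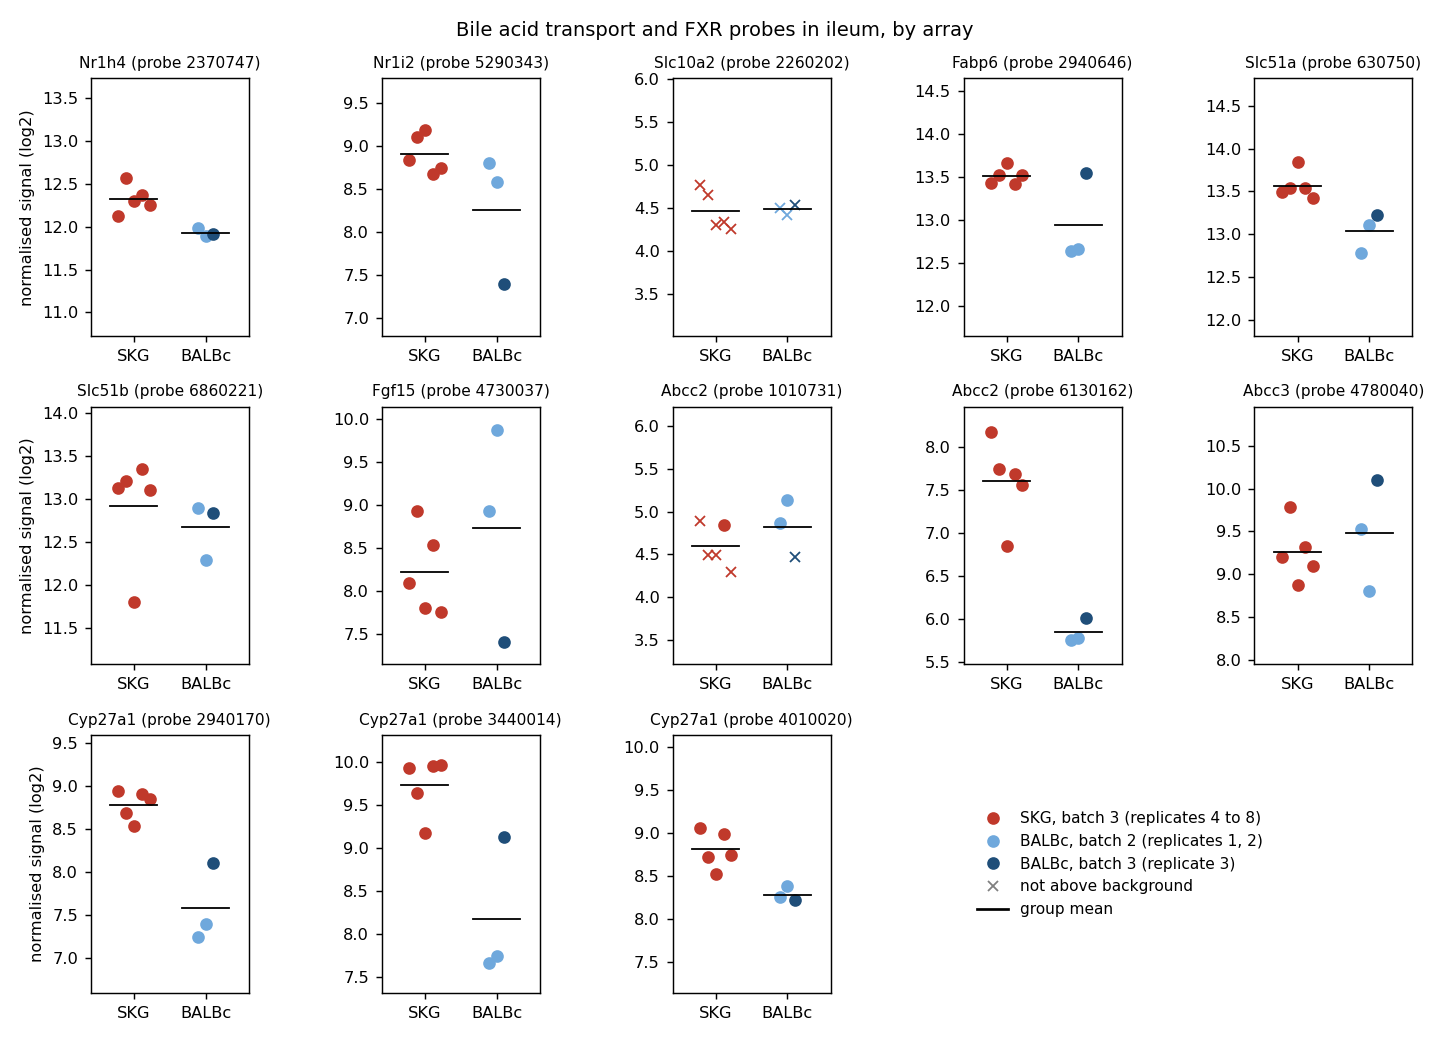
Normalised log2 signal (vertical axis) of the 13 member probes on 8 arrays, SKG left and BALBc right, with 1 point per mouse, colours for batches, crosses for values not above background and a bar for the group mean. The brighter Abcc2 probe, the 3 Cyp27a1 probes, Nr1h4 and Slc51a have all SKG points above all BALBc points.

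The receptors came first. Nr1h4, the bile acid receptor FXR, had 12.12, 12.57, 12.30, 12.37 and 12.25 in SKG replicates 4 to 8, against 11.99, 11.89 and 11.92 in BALBc replicates 1 to 3. After normalisation the 5 SKG values all lay above the 3 BALBc values, and the BALBc values of both batches lay close together. On the deposited scale BALBc had 8577.5 and 6458.8 in batch 2 and 2539.6 in batch 3, against 3102.1 to 4955.5 in SKG. SKG mice averaged 12.32 ± 0.16 and BALBc mice 11.93 ± 0.05 (SD, n = 5 SKG and 3 BALBc mice). The fitted difference was 0.40 (SE 0.23, 1.32-fold, 95% interval −0.10 to 0.90) and did not pass (limma adjusted p = 0.487). Within batch 3 it was 0.41, and against the BALBc mice of batch 2 it was 0.38.

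Nr1i2, the xenobiotic receptor PXR, had 8.83, 9.10, 9.18, 8.67 and 8.74 in SKG, against 8.80, 8.57 and 7.39 in BALBc. The groups overlapped, and the low BALBc value was that of the mouse in batch 3. In SKG the mean was 8.91 ± 0.23, and in BALBc it was 8.25 ± 0.76 (SD, n = 5 SKG and 3 BALBc mice). The fitted difference was 1.18 (SE 0.31, 2.27-fold, 95% interval 0.49 to 1.87), which did not pass (limma adjusted p = 0.133). It rested on BALBc replicate 3. Within batch 3 the difference was 1.52 (SE 0.27, limma adjusted p = 0.0497 with batch as a fixed block), against the BALBc mice of batch 2 it was 0.22, and without BALBc replicate 3 it was 0.22 with no call. It passed with 75th percentile scaling (1.42, limma adjusted p = 0.0479) and without SKG replicate 6 (1.25, limma adjusted p = 0.0323). Over the 16 alternatives its adjusted p ran from 0.0323 to 0.435.

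The uptake transporter could not be compared. The single Slc10a2 probe, for the apical sodium-dependent bile acid transporter that defines ileal uptake, stayed at background on all 8 arrays. Its detection p was 0.0739, 0.124, 0.733, 0.578 and 0.878 in SKG and 0.167, 0.269 and 0.197 in BALBc. Its deposited signals were 97.5, 101.3, 92.3, 97.2 and 93.0 in SKG against 163.6, 135.3 and 98.8 in BALBc. The 2 higher values are those of batch 2, whose arrays had median signals over all probes of 187.5 and 163.0, against 98.5 to 105.6 in batch 3. The probe gives no level for the gene in either strain.

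The cytosolic carrier and the basolateral exporter followed. Fabp6, the ileal bile acid binding protein, whose promoter held the IR-1 matches, had 13.42, 13.52, 13.66, 13.41 and 13.52 in SKG, against 12.64, 12.66 and 13.54 in BALBc. The BALBc mouse of batch 3 lay inside the SKG range, and both batch 2 mice lay below it. SKG mice averaged 13.51 ± 0.10 and BALBc mice 12.95 ± 0.52 (SD, n = 5 SKG and 3 BALBc mice). The fitted difference was 0.20 (SE 0.25, 95% interval −0.35 to 0.74, limma adjusted p = 0.786), −0.03 within batch 3 and 0.86 against batch 2. On the deposited scale the signal was 9454 to 12224 in SKG and 10407 to 12326 in BALBc, with array maxima of 15828 to 18716, so the strains differed less there than after normalisation. Without BALBc replicate 3, which leaves batch and strain confounded, the difference was 0.81 and passed (limma adjusted p = 0.00451, in a range over the 16 alternatives of 0.00451 to 0.967). In that setting 2948 of 13521 probes passed as higher and 2193 as lower.

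Slc51a, the larger chain of the basolateral exporter, had 13.49, 13.54, 13.85, 13.53 and 13.42 in SKG, against 12.79, 13.11 and 13.23 in BALBc. All SKG values lay above all BALBc values after normalisation. The deposited signals overlapped, at 9713 to 14820 in SKG, 13087 and 12340 in BALBc of batch 2 and 7718 in BALBc of batch 3. In SKG the mean was 13.57 ± 0.16, and in BALBc it was 13.04 ± 0.23 (SD, n = 5 SKG and 3 BALBc mice). The fitted difference was 0.41 (SE 0.24, 1.33-fold, 95% interval −0.11 to 0.94, limma adjusted p = 0.501), with 0.34 within batch 3 and 0.62 against batch 2. It was 0.58 and passed without BALBc replicate 3, which leaves batch and strain confounded (limma adjusted p = 0.0390). Over the 17 alternatives the adjusted p ran from 0.0390 to 0.653.

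Its partner chain Slc51b had 13.13, 13.22, 11.80, 13.35 and 13.11 in SKG, against 12.90, 12.30 and 12.84 in BALBc. Of the SKG mice 4 lay above all BALBc mice, and SKG replicate 6 lay below them all. SKG mice averaged 12.92 ± 0.63 and BALBc mice 12.68 ± 0.33 (SD, n = 5 SKG and 3 BALBc mice), and the fitted difference was 0.15 (SE 0.44, 95% interval −0.83 to 1.12, limma adjusted p = 0.923). Without SKG replicate 6 it was 0.39, still without a call. The 2 chains of the exporter thus went opposite ways in that mouse, where Slc51a was the highest and Slc51b the lowest of the 5 SKG values. The deposited Slc51b signal was 2209 in SKG replicate 6 and 7230 to 10391 in the other SKG mice, with a standard error over its beads of 3.56% of the signal.

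The hormone of the axis varied widely among the BALBc mice. Fgf15, the ileal growth factor that FXR induces, had 8.09, 8.92, 7.80, 8.53 and 7.75 in SKG, against 8.93, 9.88 and 7.41 in BALBc. The BALBc mouse of batch 3 was the lowest of all 8, BALBc replicate 1 lay level with the highest SKG mouse, and BALBc replicate 2 lay above all. In SKG the mean was 8.22 ± 0.50, and in BALBc it was 8.74 ± 1.25 (SD, n = 5 SKG and 3 BALBc mice). The fitted difference was 0.30 (SE 0.50, 95% interval −0.81 to 1.41, limma adjusted p = 0.846). Its direction depended on the batch of the BALBc mice: 0.81 within batch 3 and −1.18 against the BALBc mice of batch 2. With no batch term it was −0.52, and without BALBc replicate 3 −1.18 with a call (limma adjusted p = 0.0296, in a range over the 17 alternatives of 0.0296 to 0.980). Leaving out BALBc replicate 3 confounds batch and strain. The BALBc mice of batch 2 exceeded the BALBc mouse of batch 3 by 1.99, more than any fitted strain difference among the 12 probes, and here batch and mouse cannot be told apart.

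The fitted differences of the export pumps lay on opposite sides of 0. Abcc2, the apical pump for conjugated anions, has 2 probes. The brighter (6130162) had 8.18, 7.75, 6.85, 7.68 and 7.56 in SKG, against 5.75, 5.77 and 6.01 in BALBc. All SKG values lay above all BALBc values, the lowest being that of SKG replicate 6. SKG mice averaged 7.60 ± 0.48 and BALBc mice 5.85 ± 0.14 (SD, n = 5 SKG and 3 BALBc mice). The fitted difference was the largest of the 12, at 1.66 (SE 0.35, 3.15-fold, 95% interval 0.88 to 2.43), and missed the threshold (limma adjusted p = 0.0757). It was 1.59 within batch 3 and 1.84 against batch 2. It passed without SKG replicate 6 (1.83, limma adjusted p = 0.00563), without BALBc replicate 3 (1.85, limma adjusted p = 0.00141) and with no batch term (1.76, limma adjusted p = 0.0141). Without BALBc replicate 3 batch and strain are confounded, and 2948 of 13521 probes passed as higher there. Over the 16 alternatives of this Abcc2 probe the adjusted p ran from 0.00141 to 0.174.

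The size of the Abcc2 difference depended on the background. Its deposited signals were 240.2, 208.6, 129.5, 220.3 and 206.5 in SKG and 123.7 in the BALBc mouse of batch 3, where the median over all probes was 103.7. The BALBc signals of batch 2 were 252.8 and 228.1, against medians of 187.5 and 163.0. Without background correction the difference was 0.85 (limma adjusted p = 0.121). The second Abcc2 probe (1010731) was above background on 1 of 5 SKG and 2 of 3 BALBc arrays. Over all arrays SKG averaged 4.60 ± 0.25 and BALBc 4.82 ± 0.34 (SD, n = 5 SKG and 3 BALBc mice). It differed by −0.003 (SE 0.27, limma adjusted p = 0.998), and its sign changed between settings.

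Abcc3, the basolateral pump, had 9.21, 9.79, 8.87, 9.32 and 9.09 in SKG, against 9.53, 8.80 and 10.10 in BALBc. The groups overlapped, and the BALBc mouse of batch 3 was the highest of all 8. In SKG the mean was 9.26 ± 0.34, and in BALBc it was 9.48 ± 0.65 (SD, n = 5 SKG and 3 BALBc mice). Abcc3 had the most negative fitted difference of the 12, at −0.60 (SE 0.35, 95% interval −1.37 to 0.17, limma adjusted p = 0.504). Within batch 3 it was −0.84, with all 5 SKG values below the BALBc value, as for 21.3% of all probes. Against the BALBc mice of batch 2 it was 0.09. Of the other 11 probes tested, 8 had all 5 SKG values above the BALBc value of batch 3, as for 22.0% of all probes.

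The synthesis enzyme was measured 3 times. Cyp27a1 probe 3440014 had 9.93, 9.64, 9.17, 9.96 and 9.97 in SKG, against 7.66, 7.75 and 9.13 in BALBc. Probe 2940170 had 8.94, 8.68, 8.54, 8.91 and 8.85 in SKG, against 7.25, 7.40 and 8.10 in BALBc. Probe 4010020 had 9.05, 8.72, 8.52, 8.99 and 8.74 in SKG, against 8.25, 8.38 and 8.22 in BALBc. On each probe all SKG values lay above all BALBc values, and SKG replicate 6 was the lowest SKG mouse. The probes disagreed on the BALBc mice: batch 2 differed from batch 3 by −1.43, −0.78 and 0.10 on the 3 probes in the same order.

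The fitted Cyp27a1 differences were 0.97 (SE 0.36, limma adjusted p = 0.270), 0.88 (SE 0.26, limma adjusted p = 0.168) and 0.56 (SE 0.24, limma adjusted p = 0.346). None passed, and their 95% intervals were 0.18 to 1.75, 0.32 to 1.45 and 0.03 to 1.10. Within batch 3 the 3 probes lay close together, at 0.60, 0.68 and 0.59. Against the BALBc mice of batch 2 they spread over 2.03, 1.46 and 0.49. Probes 3440014 and 2940170 passed with no batch term (1.56 and 1.20) and without BALBc replicate 3 (2.04 and 1.47), while probe 4010020 passed in none of its 16 alternatives. Without BALBc replicate 3 batch and strain are confounded. The adjusted p of probes 3440014 and 2940170 ran from 0.000230 to 0.427 and from 0.000311 to 0.315 over 17 alternatives each.

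**Figure D2:**
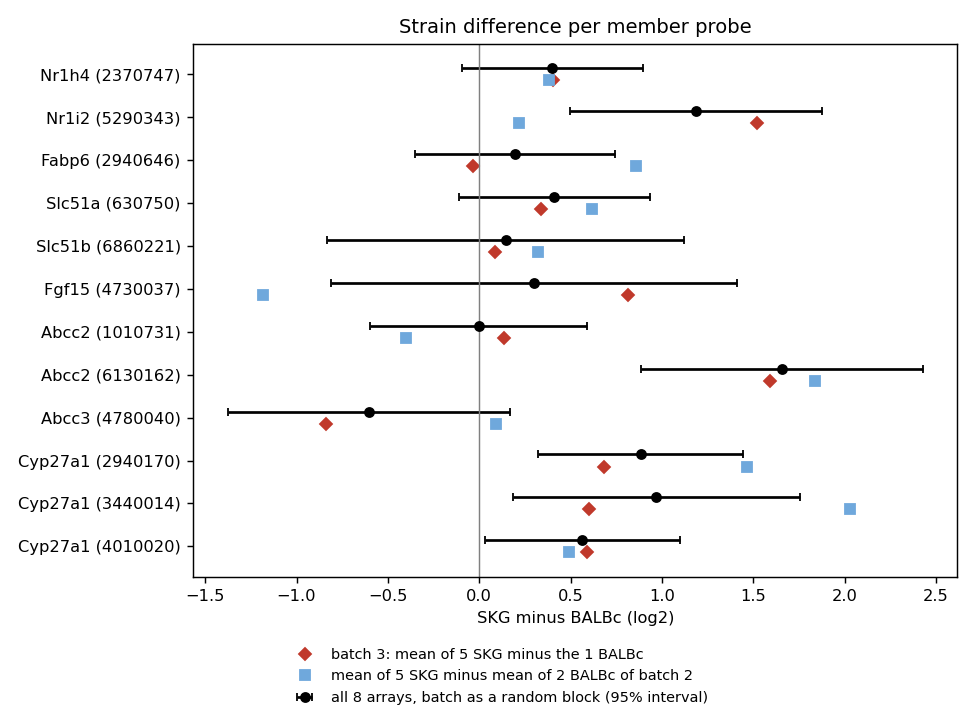
SKG minus BALBc on the log2 scale (horizontal axis) for the 12 member probes tested, with the fit on 8 arrays and its 95% interval in black, the batch 3 difference as red diamonds and the difference from the batch 2 BALBc mice as blue squares. Against the BALBc mice of either batch, the brighter Abcc2 probe lies above 1.5 and Nr1h4 near 0.4. Diamonds and squares differ in sign for Fgf15, Fabp6, Abcc3 and the dim Abcc2 probe. Both use the same 5 SKG mice of batch 3. Batch 2 holds no SKG mouse, so in the squares strain and batch are confounded.

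The members varied among the SKG mice as well. Of the 11 member probes above background on all 8 arrays, SKG replicate 6 was the lowest of the 5 SKG mice in 6 and the highest in 3, against 35.4% and 37.4% of all probes. The 6 were the brighter Abcc2 probe, Abcc3, Slc51b and the 3 of Cyp27a1, and the 3 were Nr1i2, Fabp6 and Slc51a. Its position among the SKG mice was thus at an extreme for most probes of the array as well. For these 11 probes the standard error over the beads was 2.21% to 7.08% of the signal (median 3.96%, 21 to 60 beads).

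The wider pathway was read from 4 lists, with 1 probe per gene. Among FXR partners and targets 8 of 15 genes on the array were kept, and none passed. Their median difference was 0.58 and 6 of 8 were positive. Rxra, the RXR chain that pairs with FXR, came closest, with 7.10, 7.02, 6.91, 6.92 and 7.14 in SKG against 5.80, 5.64 and 6.07 in BALBc. The groups did not overlap, and the difference was 1.04 (SE 0.22, limma adjusted p = 0.0757, passing in 4 of 16 alternatives with a range of 0.000384 to 0.165). Its deposited signals were low, at 131.6 to 173.9 in SKG and 125.1 in BALBc replicate 3, where the median over all probes was 103.7. In BALBc replicates 1 and 2 they were 258.1 and 217.1, against medians of 187.5 and 163.0. Without background correction the Rxra difference was 0.48. Sdc1, a proteoglycan and known FXR target, differed by 0.88 (SE 0.28, limma adjusted p = 0.212) and passed in 3 of its 17 alternatives. The probes of the FXR target Nr0b2, encoding the repressor SHP, and of the bile acid receptor Gpbar1 were not above background on any array.

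In the list of bile acid synthesis and conjugation 9 of 17 genes on the array were kept (median 0.19). Of these 1 was called higher in SKG and 0 lower, against 0.319% and 0.254% of all probes. The gene called higher was Acox2, a peroxisomal oxidase that shortens the side chain of bile acid precursors. It had 8.83, 9.13, 9.60, 9.14 and 8.62 in SKG, against 7.69, 8.12 and 6.84 in BALBc. All SKG values lay above all BALBc values. The difference was 1.95 (SE 0.35, limma adjusted p = 0.0405), with 2.22 within batch 3 (limma adjusted p = 0.0305 with batch as a fixed block). The call held in 7 of 17 alternatives (limma adjusted p from 0.00825 to 0.282) and was lost without SKG replicate 4, 5, 7 or 8 and without BALBc replicate 1 or 2, at differences of 1.89 to 2.06. It was also lost with cyclic loess, without background correction, with no filter and in the authors' deposited table. Without BALBc replicate 3 the difference was 1.16. Cyp7a1 and Cyp8b1, enzymes of the classical hepatic pathway, were not above background on any array.

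Other bile acid and sterol carriers gave 8 kept genes of 14 on the array, of which 6 were positive and none passed (median 0.42). Abcg5, a subunit of the apical sterol exporter, differed by 0.73 (SE 0.24, limma adjusted p = 0.223), and by 0.42 without BALBc replicate 3. It passed with 75th percentile scaling (1.25) and without SKG replicate 6 (0.84). Abcc6, an export pump of the same family as Abcc2, differed by 0.54 (SE 0.26, limma adjusted p = 0.405). Without BALBc replicate 3, which leaves batch and strain confounded, it was 1.03 and passed (limma adjusted p = 0.00335). Over the 17 alternatives the adjusted p ran from 0.00335 to 0.891, and in the authors' deposited table the difference was 0.0488. Of the PXR targets 9 of 12 were kept, 2 were positive and none passed (median −0.05). Cyp3a13, a cytochrome P450 that PXR induces, differed by 0.95 (SE 0.30, limma adjusted p = 0.201), but by 0.03 without BALBc replicate 3. Gstm1, a glutathione transferase, differed by −0.64 (SE 0.27, limma adjusted p = 0.346). Within batch 3, 6 of the 9 PXR targets were positive, against 7084 of all 13775 probes, with a median of 0.11 against 0.02. These differences and the larger Nr1i2 difference there subtract the same 1 BALBc mouse, so they are not independent.

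**Figure D3:**
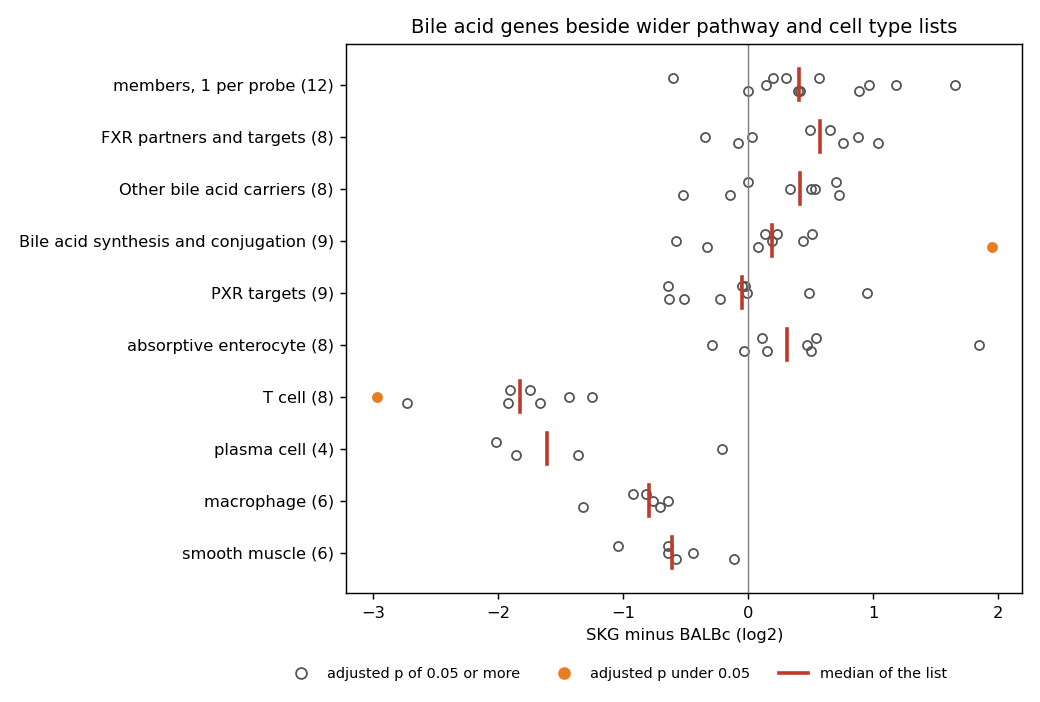
SKG minus BALBc on the log2 scale (horizontal axis), 1 circle per probe for the members and 1 per gene for the other lists, with a red bar at each list's median and filled circles for an adjusted p under 0.05. The members and 3 of the pathway lists have medians above 0 (0.41, 0.58, 0.42 and 0.19), while the leukocyte and muscle lists lie below 0.

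Marker lists of other cells were read on the same arrays. All 8 kept T cell genes had negative differences (median −1.83), with Cd6 past the threshold as lower (−2.97, SE 0.53, limma adjusted p = 0.0405), and Cd8a was not above background. Cd6 was above background on 3 of 5 SKG arrays, and its call held in 8 of 15 alternatives (limma adjusted p from 0.00297 to 0.105). It was lost with no filter, without SKG replicate 4, 5, 7 or 8 and without BALBc replicate 1 or 2, and the difference was −1.93 without BALBc replicate 3. The summed signal of the T cell list was 400.3 to 903 in SKG and 1252 to 2682 in BALBc, the highest being the BALBc mouse of batch 3. For macrophages 6 of 6 genes had negative differences (median −0.79), with sums of 554 to 808 in SKG and 1118 to 1232 in BALBc. The BALBc mouse of batch 3 had the highest of these sums as well. For plasma cells 4 of 4 had negative differences (median −1.61), with sums of 3659 to 5618 in SKG and 5908 to 7655 in BALBc. Most of these sums came from Xbp1 (11.99 in SKG, 12.42 in BALBc), whose groups overlapped (−0.21, limma adjusted p = 0.788). Jchain, Mzb1 and Tnfrsf17 were dimmer and did not pass. In each of them every SKG value lay below every BALBc value, as for 5.25% of all probes. Smooth muscle had negative fitted differences in 6 of 6 genes (median −0.61), with sums of 19769 to 27945 in SKG and 21848 to 36688 in BALBc. These ranges overlapped, and the highest BALBc sum was that of the mouse in batch 3. The group means of Acta2 went the other way (13.68 in SKG, 13.51 in BALBc), and those of the other muscle genes were lower in SKG. The absorptive enterocyte list had 6 of 8 genes positive (median 0.31), none past the threshold, with sums of 40349 to 45186 in SKG and 35554 to 52259 in BALBc, the lowest being the BALBc mouse of batch 3. Averaged over its genes on the log2 scale, the same list lay at 11.832 to 12.049 in SKG and 11.456 to 11.827 in BALBc. The lowest SKG array thus lay only just above the highest BALBc array. Apoa4 (10.50 in SKG, 8.04 in BALBc, limma adjusted p = 0.0794) was the only kept gene of the list without overlap between groups. All SKG values above all BALBc values held for 10.0% of all probes. The part of tissue makeup in the member values was not tested, and in bulk tissue fewer cells of a type and less RNA per cell cannot be told apart. Of the colon markers, Slc26a3 was above background on 3 of 5 SKG and 0 of 3 BALBc arrays, Hoxb13 on 0 SKG and 1 BALBc array, and Aqp8 on none. Of the proximal small intestine genes 3 of 5 on the array were kept, all 3 were positive and none passed (median 0.37). Slc40a1, the iron exporter, averaged 11.73 in SKG and 11.02 in BALBc (difference 0.89, SE 0.39), while Gata4, a transcription factor of the proximal small intestine, stayed at background on all 8 arrays. Of the pancreatic acinar genes 1 of 7 on the array was kept, the elastase gene Cela1, which was higher in SKG (1.49, SE 0.23, limma adjusted p = 0.0199). That call held in 10 of 16 alternatives (limma adjusted p from 0.000132 to 0.0660) and was lost without SKG replicate 4, 5, 7 or 8 and without BALBc replicate 1 or 2. Without background correction the Cela1 difference was 0.67 and passed (limma adjusted p = 0.0390).

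Patterns most like those of the members were sought among 10405 other genes by Pearson correlation of normalised values over the 8 arrays. For the brighter Abcc2 probe the most alike were Dact2 (r = 0.991), Hint3 (r = 0.985) and Adcy8 (r = 0.985). For Nr1h4 they were Gpbp1l1 (r = 0.978), Usp45 (r = 0.965) and Gsdmc2 (r = 0.959), and for Fgf15 Snw1 (r = 0.954), Ube2q2 (r = 0.945) and Ublcp1 (r = 0.942). These values are the highest of 10405 over arrays that fall into 2 batches and share batch and strain, so they are a description without a test.

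The plot of all settings shows how far each member moved with the processing. Nr1h4, Nr1i2, Slc51a, Slc51b, the brighter Abcc2 probe and the 3 Cyp27a1 probes stayed positive in each alternative that tested them, 16 or 17 of them. The values of Nr1h4 ran from 0.29 to 0.81, those of the brighter Abcc2 probe from 0.85 to 1.85 and those of Fgf15 from −1.18 to 0.81. Most of these alternatives share the same 3 BALBc mice, so their agreement in sign is no independent support.

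**Figure D4:**
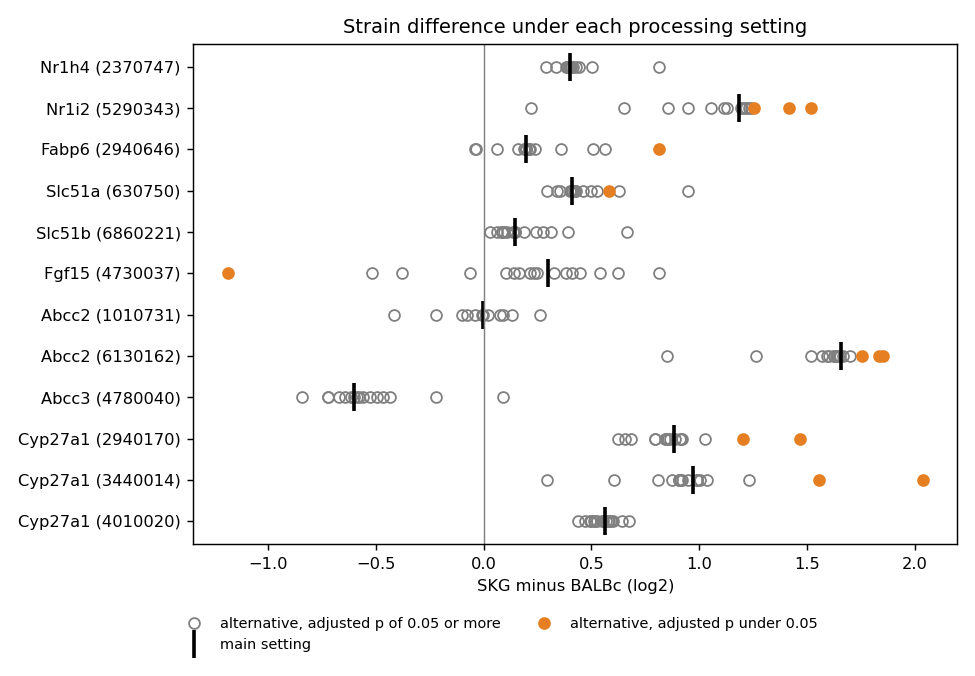
SKG minus BALBc on the log2 scale (horizontal axis) for the 12 member probes tested, with a black bar for the main setting and 1 circle per alternative setting, filled where the adjusted p was under 0.05. Filled circles appear for Nr1i2, Fabp6, Slc51a, Fgf15, the brighter Abcc2 probe and 2 Cyp27a1 probes, and Fgf15 has circles on both sides of 0. Those of Fabp6, Slc51a and Fgf15 came without BALBc replicate 3, where batch and strain are confounded.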

How the data were processed

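Groups, replicate numbers and batches came from the sample descriptions. Each file holds the mean bead intensity per probe, which the authors exported unnormalised with GenomeStudio 1.9.0 according to the file headers. Detection, deposited as a fraction, is 1 less the p-value of a probe against the negative controls. Bead numbers and bead SDs (other units, deposited beside the signal) gave measurement errors. The authors' deposited table of log2 values, whose centring and batch treatment are not given in the sources used here, served as an alternative only. The submitters' processing notes name limma without a role.

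Batch 1 was left out: rank correlations of its signals with the other arrays were 0.0768 to 0.0966, against 0.838 to 0.947 among those.

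After normexp background correction (from detection p, offset 16), quantile normalisation gave log2 values (neqc, limma 3.58.1, statmod 1.5.0, R 4.3.3). A probe was kept where its detection p was under 0.05 on 3 or more of the 8 arrays (13775 probes). SKG was compared with BALBc by limma with batch as a random block (consensus correlation 0.545), two-sided, with Benjamini-Hochberg adjustment over all probes kept and calls at 0.05. Each difference is SKG minus BALBc, and a fitted one weighs the batches. The 95% intervals are unadjusted. With batch as a fixed block the difference equals that within batch 3. On simulated data, changes of size 2 and 3 on the log2 scale were recovered. Smaller changes, such as the fitted differences of the members, were not simulated. The batch correlation came out too low there with only 2 batches, so the p-values of the random block may be too small. The number of arrays limits the precision.

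Of 18138 probe names, 14309 matched a current symbol and 2886 an older one in the RefSeq table of GRCm38.p6, and 943 kept the deposited name. The wider lists used the brightest kept probe per gene. Named from them were genes past the threshold, or else the 2 with the smallest p. Members and lists were chosen with earlier results of these data known.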

Additional observations from a re-analysis of the deposited data

Results flagged for a closer look

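SKG replicate 6 lay apart from the other 4 SKG mice in both chains of the basolateral exporter. Its Slc51b value was 11.80, below the next lowest of 13.11, a gap of 84.3% of the group's range. Its Slc51a value was 13.85, above the next highest of 13.54, a gap of 72.1% of the range. Both exceed the critical share of 71.0% for 5 samples. Among 12 SKG groups examined these were the 2 that did. Chance alone passes this limit in about 1 group in 20 only where the 5 arrays are alike. Here SKG replicate 6 was the lowest in 35.4% and the highest in 37.4% of the probes above background on all 8 arrays. The share of all probes past the limit was not computed, so 2 of 12 cannot be read as particular to the exporter. The same mouse correlated least with the other SKG mice over all probes (0.94 to 0.95).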

How the results depend on the processing

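The counts of calls, the member median and the named probes were recomputed under up to 17 alternatives, 8 of them leaving out 1 array. A probe has no value where an alternative does not test it. Of 193 member values, 169 kept their direction and side of the threshold, 13 passed newly and 12 changed sign, and 1 of these did both (Fgf15 without BALBc replicate 3). The calls over all probes (44 higher, 35 lower) were 428 and 273 with no batch term, 29 higher with batch as a fixed block, 81 higher with no filter, 102 higher with 75th percentile scaling, 26 higher with cyclic loess, and 10 and 65 in the authors' deposited log2 table. Leaving out 1 array gave 8 to 2948 higher and 18 to 2193 lower. The top of both ranges came without BALBc replicate 3, which leaves strain and batch confounded and no batch term in the fit, and 434 and 320 came without SKG replicate 6. Member probes called higher (0 in the main setting) were 3 with no batch term, 1 with a fixed block, 1 with 75th percentile scaling and 0 to 5 when 1 array was left out, with 0 to 1 called lower. Genes of the wider lists called higher (1) were 3 with no batch term, 3 with 75th percentile scaling, 0 with cyclic loess, 0 without background correction, 0 in the authors' table (12 of 34 genes tested) and 0 to 8 without 1 array, with 0 to 9 called lower. The median difference of the members was 0.74 with 75th percentile scaling and 0.37 to 0.51 when 1 array was left out. Signs changed for Fabp6 with a fixed block (−0.0341) and cyclic loess (−0.0406), and for Abcc3 without BALBc replicate 3 (0.0891, in a range of −0.72 to 0.0891 when 1 array was left out). Fgf15 was −0.52 with no batch term, −0.0622 with no filter, −1.18 to 0.62 when 1 array was left out (−1.18 without BALBc replicate 3) and −0.38 in the authors' table. The dim Abcc2 probe was 0.13 with a fixed block, 0.26 with 75th percentile scaling, and −0.42 to 0.0888 when 1 array was left out, positive without SKG replicate 5 (0.02), 6 (0.0888) or 8 (0.08). The causes of these changes were not tested. Slc10a2 and the dim Abcc2 probe were limited by signal over background, and 5 member probes were in the authors' table. No paired analysis was possible because the sample labels give no pairing between SKG and BALBc mice.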
